A study of Mus musculus with 40 samples.

Results

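Sorted skin mast cells were profiled by RNA sequencing in 8 of the 40 libraries of the series, 4 from MrgprdDTR mice and 4 from MrgprdCre mice, chosen by their sample labels alone. MrgprdCre mice carry the allele Mrgprdtm1.1(cre)And, Cre recombinase in the Mrgprd gene, on a background given as B6.129S1(Cg). MrgprdDTR mice carry it together with the allele Gt(ROSA)26Sortm1(HBEGF)Awai from C57BL/6, a diphtheria toxin receptor that Cre switches on, so that toxin kills cells with a history of Mrgprd expression, among them the sensory neurons that end in the epidermis. Mice of both genotypes are described as treated with diphtheria toxin for 3 to 4 weeks. The treatment label of the MrgprdDTR samples lists intraperitoneal toxin with acetone and olive oil, and that of the MrgprdCre samples lists acetone and olive oil alone, so it was not settled whether the control mice received toxin. Both groups share the Cre allele and the acetone and olive oil. The markers and gates of the sort, the age of the mice and the number of animals behind each library are not given in the sources used here, and the samples are labelled as epidermal. The comparison asked how the transcripts of skin mast cells differ once MrgprD neurons have been removed. Replicates are not stated to come from separate animals, so p-values measure the spread between these libraries.

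Mast cells are tissue-resident immune cells of the skin that store histamine, serotonin, heparin and proteases in granules and carry the receptor tyrosine kinase Kit and the high-affinity IgE receptor. Connective tissue mast cells, the main kind in mouse skin, also carry receptors of the Mrgprb family, through which basic peptides trigger their granules without IgE. Basophils are short-lived blood leukocytes that share the IgE receptor, histamine synthesis and the transcription factor Gata2 with mast cells but have little Kit and make Mcpt8, and a sort on shared surface markers can hold both.

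The label was checked against these markers. Granule protease transcripts were abundant in every library: Cma1, a chymase, was at 3134, 3994, 3294 and 5094 FPKM in the MrgprdCre libraries and at 9454, 8963, 5791 and 5961 FPKM in the MrgprdDTR libraries. FPKM is the number of sequenced fragments of a gene scaled to transcript length and library size. Of the defining markers of keratinocytes, T cells and macrophages, Krt5 was at most 1.51, Cd3e at most 0.752 and Csf1r at most 1.02 FPKM in any sorted library. The whole lists summed to 13.8 to 23.1 FPKM (keratinocyte, mostly Perp) and 51.7 to 114 FPKM (monocyte and macrophage) in MrgprdCre libraries. The MrgprdCre libraries also held basophil transcripts, whose values follow. Mrgprd itself was at most 0.158 FPKM, and the receptor transgene is not a row of the table, so the sorted libraries carry no direct check of the ablation. The Y-linked Eif2s3y was at 14.5, 17.6, 13 and 20.6 FPKM in MrgprdCre and 17.4, 18.7, 10.9 and 12.3 FPKM in MrgprdDTR cells, and Xist, the female-specific RNA, was at most 0.0281 FPKM, so both groups read as male. Total FPKM was 161968 to 197003 in MrgprdCre libraries, 191722 and 185388 in MrgprdDTR libraries 1 and 2, and 117574 and 126017 in MrgprdDTR libraries 3 and 4, which therefore stood apart. The 20 highest genes held 19.7% to 21.5% of the total in MrgprdCre and 23.9% to 25.1% in MrgprdDTR libraries (two-sided exact permutation test, p = 0.0286, the smallest that 4 against 4 can give). Sequencing depth is unknown because the table gives no counts.

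Gene by gene, differences were tested with limma on log2(FPKM + 1) over the 8 libraries, and a gene passed with a Benjamini-Hochberg adjusted p under 0.05 over all 8871 genes that reached 1 FPKM in at least 4 libraries. Fold changes of genes near 0 FPKM are understated on this scale. A gene under 1 FPKM in every library of 1 group could enter the test only by reaching 1 FPKM in all 4 libraries of the other. For such genes the filter fixed the direction and the lack of overlap. Of these genes, 1676 (18.9%) were higher and 1497 (16.9%) lower in MrgprdDTR cells, and 1533 (17.3%) had every MrgprdDTR library above every MrgprdCre library against 1440 (16.2%) the other way. The changes were lopsided in size. By a log2 difference of 3 or more, 149 genes fell and 1 gene, Stmn1, rose, and 94 of the 149 were at 1 FPKM or less in each MrgprdDTR library. The median log2 difference of all genes was 0.13. The counts depended on the MrgprdDTR libraries, with 1111 genes higher without library 1 and 1094 without library 2. Without libraries 1 and 2 together 541 were higher and 1761 lower, and without libraries 3 and 4 together 2201 were higher and 1029 lower.

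Cultured peritoneal mast cells from the same series, in 8 vehicle libraries, served as a reference for what mast cells of another source contain. These libraries came from cells kept with vehicle for 6 h or 48 h. Both times were pooled for the classes and for each cultured value given. Genes were called detected there at 1 FPKM or more in all 8 libraries, near 0 at a mean under 0.1 FPKM, and otherwise between. Among genes near 0 in cultured mast cells, 80 of 216 (37%) fell and 45 (20.8%) rose. Of genes detected there, 1089 of 6995 (15.6%) fell and 1304 (18.6%) rose. Of the 149 large falls, 22 were near 0 in cultured mast cells, 44 between and 83 detected. In the plot of change against cultured level, large falls occur at low and at high levels in culture.

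**Figure D1:**
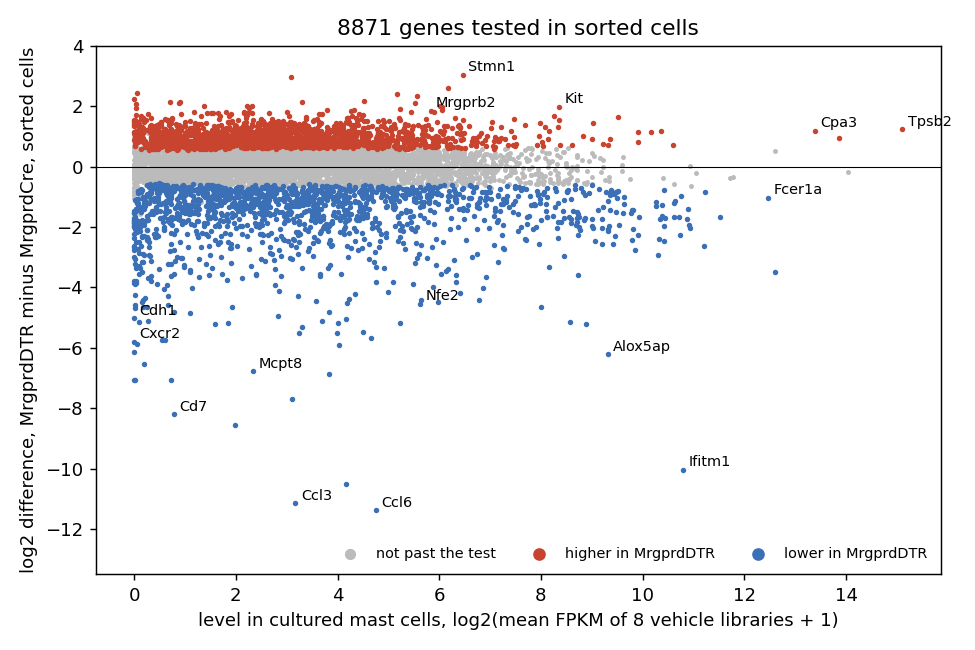
Each point is 1 of 8871 genes tested in sorted cells, by its level in cultured mast cells (horizontal, log2 of the mean FPKM of 8 vehicle libraries + 1) and its log2 difference, MrgprdDTR minus MrgprdCre (vertical). The rises end near 3, while falls reach -11.38 (Ccl6) and occur both at high cultured levels (Ifitm1, Alox5ap) and near 0 (Cdh1, Cxcr2).

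Basophil transcripts were nearly all lower. Of 14 basophil markers tested, 12 fell, 0 rose and 2 did not pass, beside 16.9% of all genes tested that fell. The median log2 difference of the markers was -4.36 against 0.13 for all genes. The list was assembled with earlier results of these data known, so its direction is not independent evidence. The number was 12 whichever single library was left out. In 12 of the 14 the groups did not overlap, beside 16.2% of all genes tested that lay lower with no overlap. Among these 12, Ccl3, Cebpa, Il18rap and Grm6 were under 1 FPKM in every MrgprdDTR library. For them the filter fixed the direction and the lack of overlap. The FPKM of the list, led by Ccl3, Ccl4 and Ifitm1 in the controls, summed to 11184, 9969.8, 6929 and 6522 in the MrgprdCre libraries and to 287, 282, 168 and 179 in the MrgprdDTR libraries. In bulk libraries, fewer cells of a type and less RNA per cell cannot be told apart.

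Mcpt8, the basophil granule protease (chromosome 14, 56700999 to 56704034 in mm9), was at 339.5, 467, 258 and 308 FPKM in MrgprdCre and at 2.29, 2.77, 1.8 and 1.58 FPKM in MrgprdDTR cells. The 2 ranges are far apart, and Mcpt8 fell by 6.77 on the log2 scale (SE 0.24, limma adjusted p = 9.01e-15). Prss34, another protease of basophils and of some mast cells, was at 20.2, 74.9, 52 and 23.7 FPKM against 0, 0.281, 2.79 and 0.0697 FPKM and fell by 4.66. Prss34 is also plentiful in the cultured mast cells (254 FPKM), whereas Mcpt8 is at 4.08 FPKM there. In all, 10 of the 14 markers are detected in the cultured mast cells, so the list is not exclusive to basophils. Cebpa, a transcription factor that directs basophil fate, is the marker at the lowest cultured level (0.0061 FPKM). It was at 8.05, 8.25, 7.54 and 6.35 FPKM in MrgprdCre and at 0, 0.0357, 0.041 and 0.0295 FPKM in MrgprdDTR cells.

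Surface markers of basophils did not move alike. Cd200r3, an activating receptor of basophils and mast cells, was at 286, 279, 209 and 230.3 FPKM against 171, 187, 103 and 115 FPKM and fell by 0.83 (adjusted p = 0.0116). With quantile normalization its log2 difference was -0.17 (adjusted p = 0.125), and with no filter the adjusted p was 0.0616. Il3ra, the interleukin 3 receptor alpha chain, was at 7.65, 4.58, 6.54 and 7.81 FPKM against 11, 8.28, 4.7 and 7.47 FPKM, and Itga2, the integrin alpha 2 chain recognised by the DX5 antibody on basophils, at 3.57, 4.74, 3.99 and 1.68 FPKM against 2.4, 2.4, 2.91 and 2.09 FPKM. Both overlapped between the groups and did not pass the test (adjusted p = 0.6 and 0.329).

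**Figure D2:**
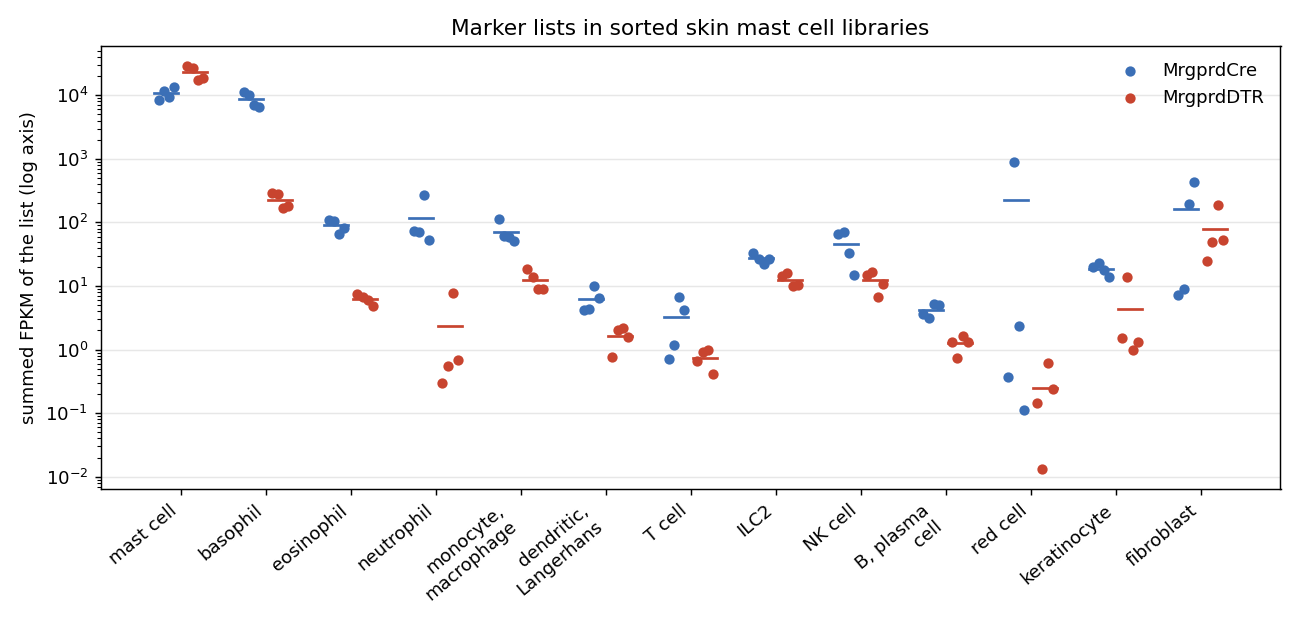
Summed FPKM of each marker list (log axis) in the 4 MrgprdCre and 4 MrgprdDTR libraries, with a short line at the group mean. The mast cell sums are higher in MrgprdDTR libraries, and the basophil sums drop from between 6522 and 11184 to between 168 and 287 FPKM.

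Markers of other leukocytes were mostly low, and those that passed the test nearly all fell, beside 16.9% of all genes tested that fell and 18.9% that rose. Ccr3, Cxcr2, Ccr2, Itgam and Emr1 were under 1 FPKM in every MrgprdDTR library, so the filter fixed their direction. Of the eosinophil list 4 of 12 genes were tested, and Alox15, Ccr3 and Siglec5 fell while Il5ra rose. Ccr3, through which eotaxin draws in eosinophils and basophils, was at 14.4, 11.3, 5.87 and 8.58 FPKM against 0.00928, 0.0473, 0.0653 and 0.0235 FPKM. The defining granule genes of eosinophils were at or near 0 in both groups: Epx and Prg2, the eosinophil peroxidase and major basic protein, were at most 0.0145 and 0.044 FPKM in any library. Il5ra, the interleukin 5 receptor alpha chain, went the other way, from 1.54, 0.889, 0.652 and 1.44 FPKM to 6.3, 6.24, 4.51 and 4.48 FPKM (log2 difference 1.59, adjusted p = 2.79e-05).

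The neutrophil transcripts S100a8 and S100a9 were high in a single control library. S100a8, a calcium-binding protein of neutrophils, was at 0, 0, 112 and 0 FPKM in the MrgprdCre libraries and at most 0.218 FPKM in MrgprdDTR libraries, and S100a9 followed it at 0, 0.209, 76.7 and 0 FPKM. Cxcr2, a chemokine receptor of neutrophils and some other granulocytes, was instead even across the controls at 71.2, 63.8, 44.8 and 51.6 FPKM and at 0.0601, 0.0162, 0.0162 and 0.04 FPKM in MrgprdDTR cells, a fall of 5.81 on the log2 scale. The decoy receptor Il1r2 was the only other neutrophil marker tested, and it passed narrowly (log2 difference -1.35, adjusted p = 0.0494). Without MrgprdCre library 3 it did not pass (adjusted p = 0.192), nor without MrgprdDTR library 1, 2 or 4 (adjusted p = 0.164, 0.177 and 0.119). Without MrgprdDTR library 3 its difference was -2.04 (adjusted p = 7.94e-04).

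Of the monocyte and macrophage list 6 of 20 genes were tested, and 4 fell, beside 16.9% of all genes tested. For Ccr2, Itgam and Emr1 among them the filter fixed the direction. Ccr2, the receptor for Ccl2, was at 38.5, 32.3, 20.5 and 16.1 FPKM against 0.00842, 0.0172, 0.0593 and 0.0853 FPKM, and the integrin gene Itgam at 4.23, 8.16, 5.47 and 6.37 FPKM against 0.0255, 0.111, 0.0112 and 0.0243 FPKM. Emr1, which encodes F4/80, was lower at 4.54, 2.59, 2.87 and 3.63 FPKM against 0.169, 0.506, 0.115 and 0 FPKM. Ly6c2 differed among the controls, at 61.9, 7.54, 2.56 and 2.69 FPKM, and was at 0.863, 0.534, 1.17 and 0.5 FPKM in MrgprdDTR cells. Its log2 difference was -2.39, and -1.47 without MrgprdCre library 1. The complement genes C1qa, C1qb and C1qc of tissue macrophages were at most 1.28 FPKM.

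Lymphoid and structural markers gave few tested genes. Over all genes tested, 18.9% rose and 16.9% fell, and 17.3% lay higher and 16.2% lower with no overlap. No gene of the dendritic and Langerhans list (sums of 4.12 to 10.2 FPKM in MrgprdCre and 0.771 to 2.16 FPKM in MrgprdDTR libraries) or of the T cell list (at most 6.7 FPKM) reached the filter. Of 5 genes of type 2 innate lymphoid cells, Rora, Il7r and Il13 fell and Gata3 rose, and Il13 did not pass without MrgprdCre library 1 or MrgprdDTR library 3 or 4 (adjusted p = 0.114, 0.0957 and 0.104). Nkg7, a granule protein of cytotoxic lymphocytes, was at 66.5, 69.7, 32.7 and 14.9 FPKM against 14.7, 16.6, 6.15 and 10.6 FPKM and fell by 1.70 with an overlap between the groups. Cd79b, a chain of the B cell receptor complex, was at 2.07, 1.95, 2.26 and 2.82 FPKM in controls and fell by 1.63. Perp, a desmosomal protein that was the one keratinocyte gene tested, fell from 19.4, 22.3, 15.3 and 7.6 FPKM to 0, 4.04, 0 and 0.232 FPKM. Ncam1 made up much of the sum of the melanocyte and Schwann cell list in every library. This list summed to 6.48 to 10.7 FPKM in MrgprdCre and 18.4 to 31.7 FPKM in MrgprdDTR libraries, with no overlap. Of its 2 tested genes Ncam1, a neural cell adhesion molecule, rose by 1.62, from 4.52, 4.67, 4.55 and 8.92 FPKM to 21.3, 24.1, 15.5 and 15.9 FPKM (0.30 when centred on mast cell genes, adjusted p = 0.118). Of 2 endothelial genes Pecam1 fell and Egfl7 rose by 1.08, and Egfl7 did not pass without MrgprdDTR library 1 (adjusted p = 0.0581). Of 4 platelet genes the integrin chain Itgb3 fell by 2.19 and Gp1ba, part of the von Willebrand factor receptor, rose by 1.07, though not past the test with no filter (adjusted p = 0.0992). Haemoglobin was found in MrgprdCre library 2, where the red cell list summed to 903 FPKM against at most 2.34 FPKM elsewhere. The fibroblast list differed as much within groups as between them, with sums of 7.3, 9.04, 199 and 433 FPKM in MrgprdCre and 24.8, 48.6, 188 and 53.3 FPKM in MrgprdDTR libraries, and 1 of 7 tested genes, Pdgfrb, rose (5 of 7 without MrgprdCre library 4).

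Most mast cell surface receptors rose. Of 12 tested receptors and markers of mast cell identity, 8 rose, 1 fell and 3 did not pass, with a median log2 difference of 1.33 against 0.13 for all genes. Of all genes tested 18.9% rose and 16.9% fell. Kit, the stem cell factor receptor on which mast cells depend (chromosome 5, 75971011 to 76052746 in mm9), was at 40.7, 49.2, 45.7 and 54.5 FPKM in MrgprdCre and at 232, 241, 161 and 148 FPKM in MrgprdDTR cells. All 4 MrgprdDTR libraries lie above all 4 controls, and Kit rose by 1.99 (SE 0.23, limma adjusted p = 1.06e-06). Mrgprb2, the receptor for basic secretagogues, was at 43.8, 56.4, 32.7 and 43 FPKM against 181, 188, 147 and 125 FPKM, and its neighbour in the family Mrgprb1 at 72.8, 87.9, 65.3 and 89.1 FPKM against 313, 336, 239 and 225 FPKM. These rose by 1.85 and 1.80. Mrgprb8 was lower in level, at 3.54, 3.57, 5.72 and 3 FPKM against 24.3, 16.3, 16.9 and 15 FPKM, rose by 1.95 and was at 0.0216 FPKM in cultured mast cells. Il1rl1, the interleukin 33 receptor that basophils also carry, was at 17.9, 22.2, 13.4 and 28.1 FPKM against 42.3, 30.5, 19.8 and 17.7 FPKM and did not pass (adjusted p = 0.306).

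Granule proteases rose together on the deposited scale, although Cpa3, Tpsb2, Tpsab1, Cma1 and Mcpt4 lay below 0 once libraries were centred on mast cell genes, as given later. Of 10 tested, 8 rose, Gzmb fell and Tpsab1 did not pass, with a median log2 difference of 1.07, beside 18.9% of all genes tested that rose. The carboxypeptidase Cpa3 was at 1587, 2060.5, 1746 and 2171 FPKM against 5306, 4813, 3569.5 and 3718 FPKM and rose by 1.19 (SE 0.26, adjusted p = 0.00114). The tryptase Tpsb2 went from 1983, 3244, 2461 and 3227 FPKM to 8253, 7481, 4821 and 5357 FPKM, a rise of 1.24. Cma1, given above, rose by 0.95, and the chymase Mcpt4, at 1505, 2128, 1635 and 2425 FPKM against 4613, 4288, 2727 and 2927 FPKM, by 0.91. The last 2 calls are the least firm: without MrgprdCre library 1 the adjusted p was 0.0526 for Cma1 and 0.0592 for Mcpt4, and without MrgprdDTR library 2 it was 0.052 and 0.0528. With quantile normalization Cma1 did not pass (adjusted p = 0.0929). With no filter on low values, which put 22601 genes into the test, Cpa3, Tpsb2, Cma1, Mcpt4 and Ctsg did not pass (adjusted p = 0.121, 0.184, 0.363, 0.249 and 0.106). Without MrgprdDTR libraries 1 and 2 together 4 of the 10 rose.

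The remaining proteases varied more between libraries. Tpsab1, a tryptase whose near-identical relative Tpsb2 may share its reads, was at 124, 209, 191 and 416 FPKM against 489, 615, 199.5 and 201 FPKM. Its log2 difference of 0.63 (adjusted p = 0.191) was 0.95 without MrgprdCre library 4 (adjusted p = 0.00435), 0.38 without MrgprdCre library 1 and 0.34 without MrgprdDTR library 2. Ctsg, cathepsin G, was at 37.7, 49.8, 51.5 and 285 FPKM against 271, 300.1, 195 and 206 FPKM and rose by 1.70, with MrgprdCre library 4 at the level of the MrgprdDTR libraries. Gzmb, a granzyme of mast cells and lymphocytes, was at 18.8, 11.7, 26.7 and 8.82 FPKM against 1.78, 0.519, 0.283 and 0.293 FPKM and fell by 3.31.

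Genes of serotonin handling rose, and the histamine enzyme did not. Slc18a2, which loads amines into granules, was at 40.5, 40.2, 41 and 33 FPKM against 119.9, 118, 87.5 and 85.3 FPKM, and the serotonin transporter Slc6a4 at 84.6, 99.9, 81.2 and 86.6 FPKM against 299, 287, 185 and 172 FPKM. They rose by 1.37 and 1.37 on the log2 scale (adjusted p = 5.92e-05 and 1.42e-04). Ddc, which makes serotonin from its precursor, rose by 1.55, Tph1, which makes that precursor, by 1.66, and Maob, which breaks amines down, by 1.35. Hdc, the histidine decarboxylase that makes histamine in mast cells and basophils alike, was at 393, 454, 429 and 247 FPKM against 442, 313, 222 and 186 FPKM. Its groups overlap, and it did not pass (log2 difference -0.43, adjusted p = 0.248, and 0.46 with quantile normalization), although without MrgprdDTR libraries 1 and 2 together Hdc passed as lower (-0.87, adjusted p = 0.0321). Serglycin, the granule proteoglycan core encoded by Srgn, was likewise not past the test at 796, 835, 655 and 794 FPKM against 763, 706, 484 and 480.4 FPKM (log2 difference -0.37, adjusted p = 0.255). Srgn passed as lower with median centring (adjusted p = 0.00763), with centring on genes detected in cultured mast cells (0.00439), with the spread shared with those cells (0.0214) and without MrgprdDTR libraries 1 and 2 together (log2 difference -0.67, adjusted p = 0.0168), and was at 0.25 with quantile normalization, not past the test. Of the heparin enzymes Ndst2 rose by 1.34 and Hs3st1 fell by 1.37.

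**Figure D3:**
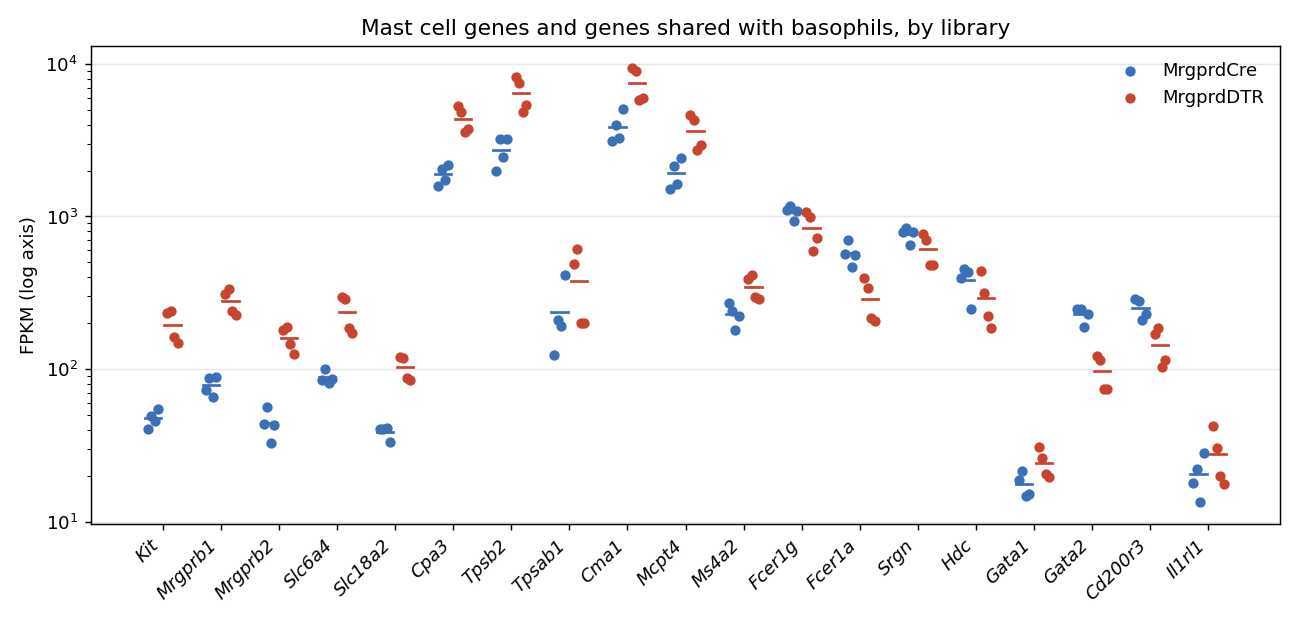
FPKM (log axis) of mast cell genes and of genes that mast cells share with basophils, with 1 point per library and a line at each group mean. Kit, the Mrgprb genes, Slc6a4 and Slc18a2 separate fully upwards, Fcer1a, Gata2 and Cd200r3 separate fully downwards, and Tpsab1, Fcer1g, Srgn, Hdc, Gata1 and Il1rl1 overlap.

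Of 13 tested genes that mast cells and basophils share, 2 rose, 6 fell and 5 did not pass (median -0.43), beside 18.9% of all genes tested that rose and 16.9% that fell. Leaving out MrgprdCre library 1, 2, 3 or 4 or MrgprdDTR library 1 or 2 left 1 that rose, and with quantile normalization 6 rose and 5 fell. Fcer1a, the IgE-binding chain of the high-affinity receptor, was at 563, 706, 468 and 557 FPKM against 396, 342, 215 and 205 FPKM and fell by 1.03 (SE 0.26, adjusted p = 0.00409), but did not pass with quantile normalization (log2 difference -0.15, adjusted p = 0.243) or with no filter (adjusted p = 0.053). Its beta chain Ms4a2 was at 271, 239, 179.9 and 223 FPKM against 387, 414, 296 and 288 FPKM, with every MrgprdDTR library above the controls and an adjusted p of 0.0516. Ms4a2 passed as higher without MrgprdDTR library 3 (adjusted p = 0.032), with the replicate block (0.0236), median centring (0.0012), library weights (0.0394) and quantile normalization (log2 difference 1.33, adjusted p = 1.98e-06). The gamma chain Fcer1g was at 1104, 1177, 939.6 and 1089 FPKM against 1069, 999.6, 592 and 721 FPKM and did not pass (log2 difference -0.39, adjusted p = 0.246). The direction and call of Fcer1g depended on the setting. It passed as lower with median centring (-0.38, adjusted p = 0.0112), with the spread shared with cultured mast cells (adjusted p = 0.0148) and without MrgprdDTR libraries 1 and 2 together (-0.72, adjusted p = 0.0154), and as higher with quantile normalization (0.30, adjusted p = 0.00335). Csf2rb, the shared beta chain of the interleukin 3 and 5 receptors, whose relative Csf2rb2 may share its reads, fell by 1.5 on the log2 scale, from 147, 125, 91.9 and 102 FPKM to 51.2, 58.2, 29.5 and 28.8 FPKM.

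Downstream of the IgE receptor, of 17 tested signalling genes 3 rose, 3 fell and 11 did not pass, a share near that of all genes tested (18.9% rose and 16.9% fell). The number that rose was 1 without MrgprdCre library 2 or 3 or MrgprdDTR library 1 or 2, and 9 with quantile normalization. Inpp5d, the inhibitory phosphatase SHIP, rose by 1.25, while the adaptor Gab2 and the kinase Fyn fell by 1.48 and 1.13. Among transcription factors of mast cells, 9 of 19 fell and 4 rose (2 without MrgprdDTR library 1 or 2, and 8 with quantile normalization). Gata2, which both lineages need, was at 249, 246, 187 and 229 FPKM against 122, 115, 74.1 and 74.2 FPKM and fell by 1.26. Nfe2, a leucine zipper factor of the erythroid, platelet and basophil lineages, was at 72.4, 67.6, 56 and 50.6 FPKM against 2.1, 2.45, 0.978 and 1.36 FPKM and fell by 4.54. Runx1 fell by 1.72 and Sfpi1, which encodes PU.1, by 1.41. Zeb2 rose by 1.28 from 4.06, 3.79, 2.84 and 5.01 FPKM to 12, 12.8, 10.4 and 8.56 FPKM. Neither Mitf, the factor that mast cells require, at 3.52, 4.48, 3.46 and 7.9 FPKM against 10.9, 9.79, 6.39 and 5.84 FPKM, nor Gata1, at 18.7, 21.6, 14.7 and 15.2 FPKM against 30.7, 26, 20.5 and 19.6 FPKM, passed (adjusted p = 0.0578 and 0.147). Mitf passed as higher without MrgprdCre library 4 or MrgprdDTR library 4 (adjusted p = 0.00246 and 0.0413). Both passed as higher with median centring (adjusted p = 0.0143 for Mitf and 0.0182 for Gata1), with quantile normalization (0.0074 and 0.00492) and without MrgprdDTR libraries 3 and 4 together (0.029 and 0.0302), and both were lower, past the test, when centred on mast cell genes (-0.64 and -0.88).

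To set mast cell genes against each other, every library was also centred on 8 of them (Cma1, Mcpt4, Tpsb2, Tpsab1, Cpa3, Mrgprb1, Mrgprb2 and Kit), which lowers every log2 difference by 1.32. On this scale 37 genes were higher and 7438 lower, so the direction of most genes depends on which scale is used. The 8 differences average 0 here by construction. Among them Kit (0.67, adjusted p = 2.81e-04), Mrgprb2 (0.53, adjusted p = 0.0112) and Mrgprb1 (0.48, adjusted p = 0.00409) were above the proteases Cma1 (-0.37, adjusted p = 0.00819) and Mcpt4 (-0.41, adjusted p = 0.00387). Tpsab1 was lowest (-0.69, limma adjusted p = 0.0248), and Cpa3 (-0.13) and Tpsb2 (-0.08) did not pass. Each of the 8 is part of its own reference, so these adjusted p-values are not independent evidence. Mast cell genes outside the 8 that lay near 0 were Slc18a2 (0.05), Slc6a4 (0.05), Maob (0.03), Ndst2 (0.02) and Hpgds (-0.04). Gata1 (-0.88), Ms4a2 (-0.72), Srgn (-1.69), Hdc (-1.75), Fcer1a (-2.35) and Gata2 (-2.58) were below it, each past the test. Beside these differences stands the basophil list, all 14 of whose genes were lower on this scale, as were 7438 of all 8871 genes tested. Il3ra and Itga2 of this list did not pass on the deposited scale. The part of the basophil list in the differences was not tested.

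Regulatory sequences were printed for 2 genes that fell and 2 that rose, chosen by hand. Of factors named above that bind GATA or RUNX motifs, Gata2 and Runx1 were lower, and Gata1 did not pass on the deposited scale. Whether these factors bear on the 4 genes was not tested. Each line gives the 250 bases before the start of transcription, 5′ to 3′ on the strand of the gene, from RefSeq on GRCm38.p6, and all 4 genes matched the table by symbol. Capitals mark 2 GATA forms, AGATAA and its variant TGATAA, and for RUNX the form TGTGGT, each on either strand, with no overlap between the marked letters. The windows are chr14:56085198-56085447 (minus strand) for Mcpt8, chr11:83649379-83649628 (minus) for Ccl3, chr3:20242182-20242431 (minus) for Cpa3 and chr7:48558087-48558336 (minus) for Mrgprb2.
Mcpt8: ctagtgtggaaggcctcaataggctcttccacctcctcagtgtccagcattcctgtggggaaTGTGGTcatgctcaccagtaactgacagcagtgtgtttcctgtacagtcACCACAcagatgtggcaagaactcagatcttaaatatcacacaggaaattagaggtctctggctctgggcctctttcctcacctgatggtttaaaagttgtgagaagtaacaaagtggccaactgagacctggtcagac
Ccl3: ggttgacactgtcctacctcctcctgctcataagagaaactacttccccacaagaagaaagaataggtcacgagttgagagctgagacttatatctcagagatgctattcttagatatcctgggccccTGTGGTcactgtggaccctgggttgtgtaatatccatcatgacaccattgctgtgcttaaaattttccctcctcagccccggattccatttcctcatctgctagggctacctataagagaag
Cpa3: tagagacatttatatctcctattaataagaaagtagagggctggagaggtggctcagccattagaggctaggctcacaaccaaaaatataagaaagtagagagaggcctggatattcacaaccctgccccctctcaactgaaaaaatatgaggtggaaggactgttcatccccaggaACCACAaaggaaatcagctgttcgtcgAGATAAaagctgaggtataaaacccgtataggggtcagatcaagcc
Mrgprb2: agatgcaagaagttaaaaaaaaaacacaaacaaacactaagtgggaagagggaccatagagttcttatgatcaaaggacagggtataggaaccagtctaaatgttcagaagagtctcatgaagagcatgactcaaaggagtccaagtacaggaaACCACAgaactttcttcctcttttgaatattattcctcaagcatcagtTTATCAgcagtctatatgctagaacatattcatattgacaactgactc
The windows of Cpa3 and Mrgprb2 hold 1 GATA match each, and those of Mcpt8 and Ccl3 hold 0. All 4 hold a RUNX match, and that of Mcpt8 holds 2. Of 32851 windows of this length in the table, 16.6% hold the GATA letters and 14% the RUNX letters. A match is a description of these letters, not a bound site.

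Several abundant chemokine transcripts of the MrgprdCre cells were nearly absent from the MrgprdDTR cells. Of 35 chemokine ligand genes 7 were tested, 4 of which fell and 0 rose, beside 16.9% and 18.9% of all genes tested. These 4 are neighbours on chromosome 11 and attract monocytes, T cells and other leukocytes. Ccl3 was at 3128, 2743, 1934 and 1685 FPKM in MrgprdCre and at 0.0465, 0, 0 and 0 FPKM in MrgprdDTR cells, and Ccl4 at 4242, 3616, 2557 and 2559 FPKM against 0.177, 6.61, 0.102 and 1.19 FPKM. Ccl6 was at 3763, 3297, 2548 and 2058 FPKM against 0.205, 0.0232, 0 and 0.0576 FPKM and Ccl9 at 478, 429, 290.2 and 460.0 FPKM against 0.0406, 0.124, 0.107 and 0.0257 FPKM. In FPKM, the ranges of Ccl4 and Ccl6 in the controls overlapped that of the chymase Cma1, and in the MrgprdDTR libraries none of the 4 exceeded 6.61 FPKM. Ccl3, Ccl6 and Ccl9 were under 1 FPKM in every MrgprdDTR library, so the filter fixed their direction. Cultured mast cells held 8.01, 16.9, 26 and 2.94 FPKM of Ccl3, Ccl4, Ccl6 and Ccl9. The monocyte attractants Ccl2 and Ccl7, at 489.9 and 91.7 FPKM in cultured mast cells, overlapped between the groups: Ccl2 was at 219.9, 209, 153 and 154 FPKM against 314, 271, 133 and 161 FPKM and Ccl7 at 1378, 1145, 1144 and 1351 FPKM against 1916, 1472, 730.2 and 1025 FPKM (log2 differences 0.19 and -0.05, adjusted p = 0.62 and 0.905). With quantile normalization both passed as higher, at log2 differences of 0.90 and 0.65 (adjusted p = 4.34e-04 and 2.80e-04), and Ccl2 also without MrgprdDTR libraries 3 and 4 together (0.68, adjusted p = 0.0268). Centred on mast cell genes both passed as lower (-1.13 and -1.37).

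Among cytokines 8 of 10 tested fell and 0 rose, beside 16.9% and 18.9% of all genes tested. Il6 was at 230.4, 173, 88 and 99.5 FPKM against 4.18, 5.71, 2.14 and 1.79 FPKM and fell by 5.04. Osm, oncostatin M, at 476, 475, 344 and 392 FPKM against 31.5, 23.2, 10.9 and 13.6 FPKM, fell by 4.44, and Hgf, hepatocyte growth factor, by 4.04. Il4, the type 2 cytokine of basophils and mast cells, was at 193, 149, 105 and 153 FPKM against 67.6, 51, 40.3 and 38.4 FPKM and fell by 1.59, so that a sizeable level was left in each MrgprdDTR library. Tnf, made by many leukocytes, was at 12.6, 16.3, 10.9 and 18.7 FPKM against 17.2, 14.6, 7.18 and 11.7 FPKM and did not pass (adjusted p = 0.533).

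Enzymes of the leukotriene and prostaglandin pathways split. Of 9 lipid mediator genes tested 5 fell and 1 rose, beside 16.9% and 18.9% of all genes tested. Alox5ap, the helper of 5-lipoxygenase, was at 404, 379, 239 and 275 FPKM against 4.68, 3.53, 2.64 and 2.56 FPKM, and Alox5, the enzyme itself, at 56.6, 54.5, 34.3 and 24.6 FPKM against 0.0434, 0.221, 0.305 and 0.0686 FPKM. They fell by 6.22 and 5.16, although cultured mast cells hold both (636 and 377 FPKM). Alox5 was under 1 FPKM in every MrgprdDTR library, so the filter fixed its direction. Alox15 (6.15) and Ptgs2, the inducible cyclooxygenase (3.28), fell too and are near 0 in cultured mast cells (0 and 0.0623 FPKM). Hpgds, the prostaglandin D2 synthase typical of mast cells, was the gene that rose, from 16.7, 21.2, 13.4 and 15.1 FPKM to 46.3, 46.5, 35.2 and 37.6 FPKM (log2 difference 1.28, adjusted p = 1.55e-04).

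Of 17 adhesion genes tested 9 fell, 3 rose and 5 did not pass, beside 16.9% of all genes tested that fell and 18.9% that rose. With a filter of 5 FPKM 5 fell, and without MrgprdDTR libraries 1 and 2 together 1 rose. Cdh1, E-cadherin, which keratinocytes also express, was at 40.4, 40.5, 29.6 and 30.1 FPKM against 0.00678, 0.353, 0.0359 and 0.0516 FPKM and at 0 FPKM in cultured mast cells. The filter fixed the direction of Cdh1, which was under 1 FPKM in every MrgprdDTR library. The beta 2 integrin genes Itgb2 and Itgal fell by 4.81 and 3.54. Cadm1, which ties mast cells to nerve fibres and fibroblasts, rose by 1.56 from 7.68, 10.5, 10.4 and 12.4 FPKM to 36.2, 39, 24.5 and 29 FPKM.

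Receptors moved in both directions, beside 18.9% of all genes tested that rose and 16.9% that fell. Of 21 cytokine receptor genes 10 rose (4 without MrgprdDTR libraries 1 and 2 together) and 5 fell. Both chains of the interleukin 18 receptor were under 1 FPKM in every MrgprdDTR library, so the filter fixed their direction. Il18r1 went from 32.8, 26.6, 18.9 and 18.4 FPKM to 0.0866, 0.109, 0.277 and 0.0974 FPKM. Il18rap went from 24, 26.2, 15.2 and 13.1 FPKM to 0.0125, 0, 0.0876 and 0 FPKM. Tgfbr1, a TGF-beta receptor, rose by 1.36 along with Il5ra. Of 12 inhibitory receptors 4 rose and 4 fell. Cd300a and Pecam1 fell by 2.49 and 3.33, Lilrb4 by 2.26 with 121, 116, 70.02 and 76.6 FPKM left, and Pilra rose by 1.40 from 27.5, 42.4, 45.5 and 35.2 FPKM to 127, 134, 70.4 and 80.6 FPKM.

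**Figure D4:**
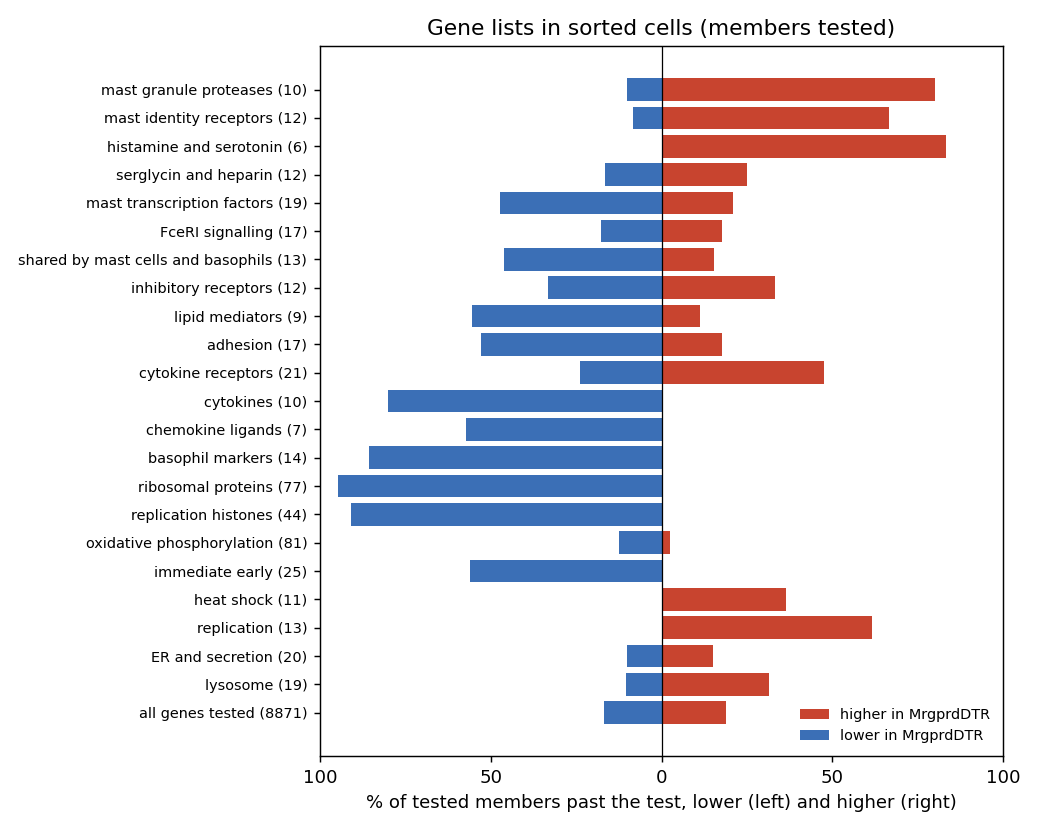
Percent of the tested members of each list (number tested in brackets) that were past the test, lower to the left and higher to the right. Mast cell receptors, granule proteases and amine genes lean right, basophil markers, cytokines, ribosomal proteins and histones lean left, and the bottom bar gives all 8871 genes.

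General cell programmes differed unevenly, beside 16.9% of all genes tested that fell and 18.9% that rose. Of 77 ribosomal protein genes 73 fell and 0 rose, with a median log2 difference of -1.66 and no overlap in 71. Rps19 was at 410.5, 336, 258 and 346 FPKM against 69.7, 81, 48.4 and 48.4 FPKM. Rps19 was at 887 FPKM in cultured mast cells, above both sorted groups. Many ribosomal protein genes have processed copies that can take their reads. Of 81 genes of oxidative phosphorylation, by contrast, 10 fell, 2 rose and 69 did not pass, shares below those of all genes. Those counts were not stable. Without MrgprdCre library 1 or 2 there were 6 that fell, without MrgprdDTR library 3 or 4 there were 5, and without both of the latter 2 fell and 19 rose. Without MrgprdCre library 4 there were 5 that rose, without MrgprdDTR library 3 there were 4, and without MrgprdDTR library 1 or 2 there was 1. After correction for transcript length 1 fell and 10 rose, and with quantile normalization 27 rose and 10 fell. Replication histone genes, which are very alike in sequence and mostly lack a poly(A) tail, fell in 40 of 44 cases (median -1.74), as in Hist1h1e (22.7, 16.5, 15.3 and 16.4 FPKM against 1.71, 1.38, 1.28 and 0.675 FPKM). After length correction 31 fell. Of 9 nuclear or small nucleolar RNA host genes tested 0 rose and 1, Snhg6, fell (by 1.01), with a median log2 difference of -0.46. The number that fell ranged from 0 without MrgprdDTR libraries 3 and 4 together to 5 with the spread shared with cultured mast cells, beside 9 when centred on mast cell genes. Malat1 was at 569, 482, 349.8 and 413 FPKM against 407, 310.3, 291 and 298 FPKM and Neat1 at 273, 253, 134 and 164 FPKM against 234, 243, 139 and 161 FPKM, neither past the test (log2 differences -0.46 and -0.06, adjusted p = 0.136 and 0.887). Malat1 passed as lower with median centring (adjusted p = 0.0291), and with quantile normalization Malat1 and Neat1 both passed as higher (0.40 and 0.63, adjusted p = 0.0178 and 0.00455). Differences in log2 followed transcript length weakly across 8794 genes (Spearman rho 0.125, a description across genes of the same libraries).

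Immediate early genes, which cells switch on within minutes of stimulation or dissociation, fell in part. Of 25 tested 14 fell and 0 rose, beside 16.9% and 18.9% of all genes tested. With quantile normalization 12 fell and 5 rose, and without MrgprdDTR libraries 3 and 4 together 9 fell and 1 rose. Nfil3 fell by 4.86 and Jund, at 188, 150.0, 94.5 and 123 FPKM against 8.36, 6.29, 4.09 and 3.68 FPKM, by 4.42. Dusp5, a MAP kinase phosphatase, fell by 3.75, and Btg2 was at 31.1, 33.9, 31.4 and 66.1 FPKM against 0.0988, 1.45, 0.539 and 0.864 FPKM. Fos, a classic member, was high in both groups at 755, 795, 624 and 881 FPKM against 911, 684, 459 and 521 FPKM and did not pass (log2 difference -0.29, adjusted p = 0.41, and 0.34 with quantile normalization). Cultured mast cells held 0.214 FPKM of Fos. Heat shock genes rose in 4 of 11 cases (2 without MrgprdDTR library 1), beside 18.9% of all genes tested. Among them was Hspa1b, a stress-induced chaperone whose near-identical copy Hspa1a may share its reads (0.726, 0.245, 0.536 and 0.924 FPKM against 4.53, 3.44, 3.25 and 2.58 FPKM). Hspa1b could enter the test only through the MrgprdDTR libraries.

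DNA replication genes rose from a low level. Of 13 tested 8 rose and 0 fell, and of 5 mitosis genes tested, out of 19, 4 rose. Of all genes tested 18.9% rose and 16.9% fell. Mcm3, part of the helicase that opens DNA, was at 1.93, 3.76, 4.05 and 1.32 FPKM against 14.9, 11.1, 8.64 and 7.73 FPKM, and Mcm2 at 0.711, 0.941, 0.912 and 0 FPKM against 5.21, 3.57, 4.04 and 2.24 FPKM. Rrm1, a subunit of ribonucleotide reductase, was at 0.418, 0.881, 1.04 and 1.39 FPKM against 5.16, 4.36, 4.67 and 2.62 FPKM, and Ccnb2, a cyclin of mitosis, at 0.118, 0.488, 0.0911 and 0.0171 FPKM against 2.19, 3, 2.69 and 1.17 FPKM. All 4 separate the groups, but Mcm2 and Ccnb2 were under 1 FPKM in every MrgprdCre library. Those genes could enter the test only through the MrgprdDTR libraries, so the filter fixed their direction. Without MrgprdDTR libraries 1 and 2 together 4 replication and 2 mitosis genes rose. Stmn1, a microtubule regulator of dividing cells, was the gene with the largest rise, from 2.1, 6.18, 8.03 and 4.12 FPKM to 65.8, 36.2, 52.5 and 35.7 FPKM (log2 difference 3.05, SE 0.30, adjusted p = 1.01e-07). On the scale centred on the 8 mast cell genes the replication genes named were not past the test (Mcm3 0.34, Mcm2 0.23, Rrm1 0.10), and Stmn1 was (1.73, adjusted p = 3.15e-04). Of 19 lysosome genes tested 6 rose and 2 fell, beside 18.9% and 16.9% of all genes tested. Psap, prosaposin, rose by 2.01, while Lamp1 fell by 2.28. The number that rose was 3 without MrgprdCre library 1 or 3 or MrgprdDTR library 1 or 2, and the number that fell was 1 without MrgprdDTR library 4.

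Outside these lists, the largest rises among genes detected in cultured mast cells after Stmn1 were in Nrip3, Fam129b, Ids, a lysosomal sulfatase that degrades heparan sulfate, Atp6v0d2, a subunit of the proton pump, and Slc30a2, a zinc transporter. Nrip3 was at 0.77, 1.14, 1.97 and 1.69 FPKM against 19.4, 26.1, 14.4 and 13 FPKM, Fam129b at 14.9, 18.8, 23.7 and 19.5 FPKM against 149, 152, 92.9 and 96.7 FPKM and Ids at 8.74, 7.75, 11.9 and 10.8 FPKM against 60.4, 67.1, 48.8 and 48.5 FPKM. These 3 rose by 2.98, 2.59 and 2.41 and remained past the test on the scale centred on mast cell genes (1.66, 1.27 and 1.09). Atp6v0d2 and Slc30a2 rose by 2.35 and 2.18. Some rises were in genes near 0 in culture. Gfra2, a receptor for the neurotrophic factor neurturin, was at 3.4, 5.71, 6.83 and 3.15 FPKM against 38.3, 30.6, 22.6 and 27.2 FPKM, with 0.0399 FPKM in cultured mast cells, and rose by 2.44 (1.12 after centring on mast cell genes, adjusted p = 0.00159). Clec12b, an inhibitory lectin receptor, was at 13.3, 13.2, 14 and 3.25 FPKM against 68.5, 51, 40.6 and 42.5 FPKM and rose by 2.25, and the transcription factor Etv1 rose by 1.72. Centred on mast cell genes neither Clec12b nor Etv1 passed (0.92 and 0.40, adjusted p = 0.0558 and 0.0814). Pdgfrb, a growth factor receptor of pericytes and fibroblasts, was at 2.69, 3.22, 3.15 and 4.5 FPKM against 21.7, 23, 14 and 13.1 FPKM, while the other 6 tested genes of the fibroblast list did not pass. Between these levels in culture, Esyt3, Stard13 and Tspan2 rose by 2.16, 2.12 and 2.01.

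Of the 149 genes that fell by 3 or more on the log2 scale, 13 were in the lists of other leukocytes. Ifitm1, an interferon-induced membrane protein also counted among the basophil markers, was at 2397, 2069, 1394 and 1098 FPKM against 1.26, 0.233, 0.577 and 0.432 FPKM, with 1783 FPKM in cultured mast cells. Cd7, a surface protein of lymphocytes, was at 365, 334, 294 and 232 FPKM against 0, 0, 0 and 0.126 FPKM. Plac8 was at 279.8, 242, 180.4 and 155 FPKM against 0, 0, 0.0948 and 0 FPKM, and Pglyrp1, a bactericidal granule protein of granulocytes, at 133, 112, 74.6 and 108 FPKM against 0.226, 0.288, 0.0975 and 0 FPKM. Defb40, a defensin gene, was at 149, 144, 94.2 and 148 FPKM in MrgprdCre cells, listed at 0 in all 4 MrgprdDTR libraries and at 0 FPKM in cultured mast cells. Igsf6, Hk3, a hexokinase of leukocytes, and Lsp1, a leukocyte actin-binding protein, fell by 5.87, 5.14 and 5.74. In each of these genes every control library was above every MrgprdDTR library, which was a condition for naming them.

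Receptors for glutamate, a transmitter of the ablated neurons and a theme of the series, were scarce. Of 24 genes 2 reached the filter. Grm6, a metabotropic receptor listed here among the basophil markers, was at 4.78, 4.1, 3.26 and 4.37 FPKM against 0.0208, 0.0141, 0.0853 and 0.0438 FPKM and fell by 2.29. The filter fixed the direction of Grm6, which could enter the test only through the MrgprdCre libraries. Grik2, a kainate receptor subunit, was below the filter at 0.582, 0.239, 0.455 and 0 FPKM in MrgprdCre and 1.15, 1.02, 0.847 and 0.782 FPKM in MrgprdDTR cells. Every MrgprdDTR library is above every control for Grik2, with no test at this level. Among all genes tested, 17.3% lay higher with no overlap. Depth is unknown, so differences between values this low cannot be told from sampling noise.

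Whole ear skin of the same genotypes, 4 libraries each, gave a comparison in whole tissue, from female mice by the same sex-linked genes, so sex and kind of sample cannot be told apart. There 931 of 12607 genes (7.38%) were higher and 788 (6.25%) lower in MrgprdDTR mice. Leaving out single skin libraries moved these counts by over 1.5 times. There were 555 higher without MrgprdCre library 2, 466 higher and 481 lower without MrgprdCre library 4, and 417 and 453 without MrgprdDTR library 1. Without MrgprdDTR library 2 there were 393 higher and 386 lower, and without MrgprdDTR library 3 there were 521 and 475. Of the 8871 genes tested in sorted cells, 3198 (36.1%) changed differently in sorted cells and in skin by an interaction test. It used the log2(FPKM + 1) scale, which understates changes of genes at low FPKM. The part of this in the differences below was not tested. Mcpt4 was at 30.6 ± 3.37 FPKM in MrgprdCre and 102 ± 9.58 FPKM in MrgprdDTR skin (SD, n = 4 each), a log2 difference of 1.71, which exceeds that in sorted cells (sorted minus skin -0.81, SE 0.26, limma adjusted p = 0.0213). For Cpa3 and Tpsb2 the difference between the 2 kinds of sample did not pass (sorted minus skin -0.35 and -0.02, adjusted p = 0.231 and 0.957). On this scale Kit rose more in sorted cells (1.61, adjusted p = 1.68e-05), as did Mrgprb2 (1.43, adjusted p = 1.03e-04), while other skin cells also express Kit. Gata2 went opposite ways. It was at 2.14 ± 0.222 FPKM against 3.86 ± 0.256 FPKM in skin, a rise of 0.63 (adjusted p = 7.65e-04), and differed from its fall in sorted cells by -1.89 (adjusted p = 2.79e-06). Fcer1a was at 0.345 ± 0.0539 FPKM against 1.13 ± 0.407 FPKM in skin, too low to be tested there alone, and by the interaction test differed by -1.68 (adjusted p = 1.07e-04). Mcpt8 and Prss34 were at or near 0 in skin (at most 0.00956 and 0 FPKM in a group mean), so the loss of basophil transcripts could not be followed there.

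**Figure D5:**
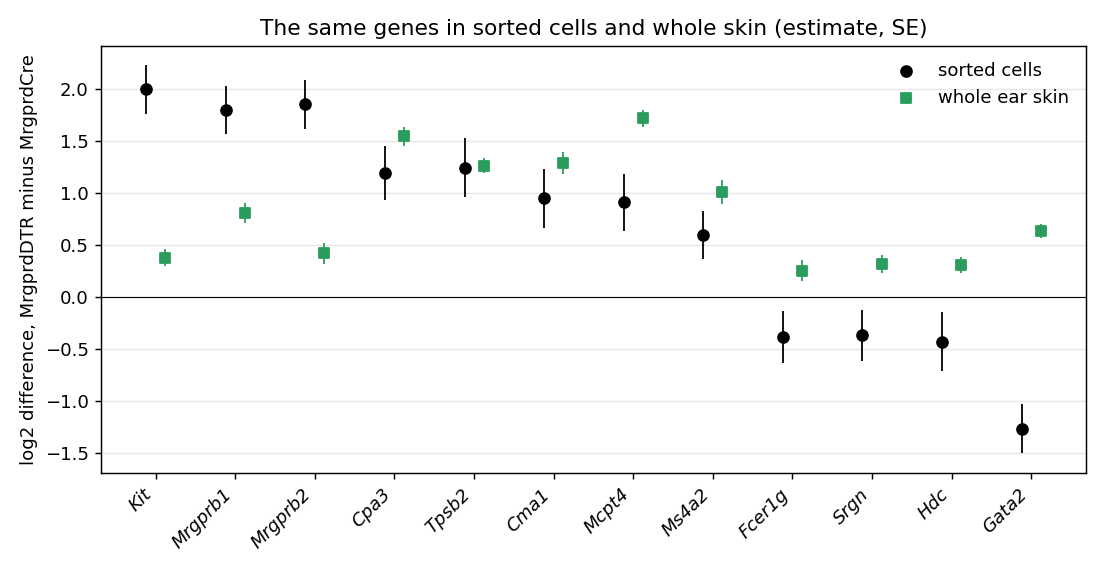
Log2 difference, MrgprdDTR minus MrgprdCre, with its standard error, in sorted cells (circles) and whole ear skin (squares), for 12 genes tested in both. Kit and the Mrgprb genes lie higher in sorted cells, Mcpt4 lies higher in skin, and Fcer1g, Srgn, Hdc and Gata2 lie above 0 in skin and below 0 in sorted cells.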

How the data were processed

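Per the submitters' processing notes, STAR and Cufflinks were used by the authors with mouse build mm9, and their versions are not given in the sources used here. The deposited FPKM table has 23812 rows and 40 libraries and no counts, and intervals for counting error were therefore not computed. Its header names no unit, and coordinates are those of the table, in mm9. Groups follow the sample labels.

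The FPKM values were analysed as log2(FPKM + 1), unscaled, with limma 3.58.1 (R 4.3.3, mean-variance trend, two-sided, Benjamini-Hochberg) for genes reaching 1 FPKM in 4 or more of the 8 libraries. Skin was treated likewise, and sorted cells were set against skin by an interaction term over 16 libraries. The fit was tested on simulated data. Python 3.11.15, pandas 2.3.3 and matplotlib 3.10.9 did the rest. The members, the 43 gene lists and the alternatives were chosen with earlier results of these data known, and 6 list symbols were matched through older names. Genes were named by rule: for each level in cultured mast cells and direction, up to 6 with the largest change (5 FPKM or more in the higher group, no overlap), 25 fixed genes, up to 4 per list in order of p, and RNA and sex checks. Predicted genes, small RNAs and symbols turned into dates were left out, and a few genes that the rule named are not reported here. Named outside it, after their values were seen, were Hpgds, Cadm1, Cebpa, Il4, Ctsg, Tph1, Ccl2, Ccl7, Tnf, Fos, S100a8, S100a9 and the low cell type markers. Alternatives were other pseudocounts, filters, scalings and variance models, a length correction, a replicate block, other class limits and leaving out each library. Leaving out MrgprdDTR libraries 1 and 2, or 3 and 4, together was added after seeing the data.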

Additional observations from a re-analysis of the deposited data

Results flagged for a closer look

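A single library stood apart from the other 3 of its group in 21 of 220 sets of 4 values (a named gene in 1 group, reaching 1 FPKM), by Dixon's 95% limit, and chance gives about 1 in 20. MrgprdCre library 4 was high for Ctsg (285 FPKM), Btg2 (66.1 FPKM), Ncam1 (8.92 FPKM), Gp1ba (16.4 FPKM) and Etv1 (2.39 FPKM), and low for Slc18a2 (33 FPKM) and Clec12b (3.25 FPKM). MrgprdCre library 1 was high for Ly6c2 (61.9 FPKM), Dusp5 (16.7 FPKM) and Hist1h1e (22.7 FPKM). MrgprdCre library 3 was high for S100a8 (112 FPKM), S100a9 (76.7 FPKM) and Il1r2 (11.9 FPKM) and low for Defb40 (94.2 FPKM). Of the MrgprdDTR libraries, library 1 was high for Gzmb (1.78 FPKM), Egfl7 (6.26 FPKM) and Malat1 (407 FPKM), library 2 for Ccl4 (6.61 FPKM) and Perp (4.04 FPKM), and library 3 for Prss34 (2.79 FPKM) and Il1r2 (6.58 FPKM).

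Of 23 fixed genes with an interaction test in limma, 12 changed differently in sorted cells and in skin, beside 36.1% of all genes tested. The fixed genes were chosen with earlier results of these data known. On the log2(FPKM + 1) scale, which understates changes at low FPKM, the change in sorted cells minus that in skin was 1.61 for Kit, 0.99 for Mrgprb1 and 1.43 for Mrgprb2. It was -0.81 for Mcpt4, -1.68 for Fcer1a, -0.64 for Fcer1g, -0.68 for Srgn, -1.89 for Gata2, -1.23 for Cd200r3 and -5.15 for Cdh1. Mcpt8 (-6.76) and Prss34 (-4.66) were at or near 0 in skin.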

How the results depend on the processing

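Of 127 named genes tested, 111 were past the test. Of these, 5 (Cma1, Mcpt4, Il1r2, Il13 and Egfl7) lost the call when a single library was left out, and 15 did so under some alternative other than centring on mast cell genes. With no filter on low values 13 lost it: Cpa3, Tpsb2, Cma1, Mcpt4, Ctsg, Fcer1a, Cd200r3, Il13, Il1r2, Ly6c2, Nkg7, Egfl7 and Gp1ba. Without MrgprdDTR libraries 1 and 2 together Cma1, Mcpt4, Ctsg, Tph1, Il1r2, Ly6c2, Egfl7 and Gp1ba lost it, and without libraries 3 and 4 Ctsg, Cd200r3, Ly6c2, Nkg7, Il13 and Snhg6. The cause of these and the following shifts was not tested, beyond what each alternative changes by construction.

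Against 1676 genes higher in sorted MrgprdDTR cells, 898 were higher with a filter of 5 FPKM (4362 genes tested), 2596 with quantile normalization, 37 with centring on mast cell genes, 3115 when the spread was shared with cultured mast cells, and 541 without MrgprdDTR libraries 1 and 2. Leaving out single libraries gave 1094 to 2086. Against 1497 lower, centring on mast cell genes gave 7438 and sharing the spread 2208. With class limits of 5 and 0.5 FPKM, 721 genes were higher in the detected class, 812 higher and 567 lower in the class between, and 143 higher and 195 lower in the class near 0. In skin, leaving out single libraries gave 393 to 880 genes higher and 386 to 730 lower. For the interaction, 2484 genes against 1644 were more positive in sorted cells with median centring.

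Directions turned in these cases. Centred on mast cell genes, log2 differences were -0.13 (Cpa3), -0.080 (Tpsb2), -0.69 (Tpsab1), -0.37 (Cma1), -0.41 (Mcpt4), -0.072 (Inpp5d), -0.72 (Ms4a2), -0.88 (Gata1), -0.64 (Mitf), -0.037 (Zeb2), -0.94 (Il1rl1), -0.043 (Hpgds), -1.13 (Il3ra), -0.30 (Gata3), -0.24 (Egfl7), -0.25 (Gp1ba) and -1.13 (Ccl2). With quantile normalization they were 0.46 (Hdc), 0.25 (Srgn), 0.30 (Fcer1g), 0.63 (Neat1), 0.40 (Malat1), 0.65 (Ccl7) and 0.34 (Fos). After length correction they were 0.13 (Fcer1g), 0.21 (Neat1) and 0.33 (Ccl7), and with library weights 0.043 (Ccl7). Without MrgprdDTR libraries 1 and 2 they were -0.089 (Tpsab1), -0.069 (Il1rl1), -0.12 (Il3ra) and -0.31 (Ccl2). Without libraries 3 and 4 they were 0.0047 (Hdc), 0.27 (Neat1), 0.43 (Ccl7), 0.14 (Tnf) and 0.059 (Fos). Leaving out single libraries, Neat1 ranged from -0.24 to 0.10, Ccl2 from -0.012 to 0.40, Ccl7 from -0.27 to 0.19 and Tnf from -0.38 to 0.00053. None of the genes turned by leaving out libraries was past the test to begin with.

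With the replicate number as a block, 1712 genes were higher and 1560 lower. Samples with the same number did not deviate together (correlations of 0.16, -0.01, 0.17 and -0.04), so the numbers were taken as names only. Depth is unknown, so values near 0 FPKM cannot be told from sampling noise.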
